A study of Rattus norvegicus with 6 samples.

Results

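Stc1, Stc2, Gdf15, Vldlr, Ddit4 and Eif4ebp1 are 6 genes that the integrated stress response is known to raise and whose products are secreted, take up lipoproteins or hold back growth. They were taken by name from the deposited gene table, which holds 26126 entries, and all 6 were found and passed the low-count filter that left 14488 entries for testing. The RNA was from H9c2, an established line of muscle precursor-like cells from embryonic rat heart, with 3 libraries of cells given a control adenovirus and 3 of cells given the adenovirus labelled adPERK, described as PERK overexpression. All 6 libraries, controls included, came from cells that had gone through simulated ischemia-reperfusion. Per the labels' protocols this included an acidic buffer of pH 6.2 with 2-deoxyglucose and lactate. It also included a chamber flushed for 30 min with 95% nitrogen and 5% carbon dioxide, and a sealed period of 1.5 to 3.5 h. Serum at 10% was recorded for all 6 libraries. There was no group without this treatment. The labels do not say whether the replicates were separate cultures, and p-values therefore cover only the spread among 6 libraries, part of which may be technical.

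PERK is a kinase of the endoplasmic reticulum that phosphorylates the initiation factor eIF2 alpha. This lowers general translation while the transcription factor ATF4 is translated more, and ATF4 and its partner CHOP (encoded by Ddit3) then raise a set of stress genes. Some of their targets act outside the cell: the stanniocalcins STC1 and STC2 are secreted glycoproteins, and STC2 inhibits the protease PAPP-A, which releases insulin-like growth factor from its binding proteins. GDF15 is a circulating factor of the TGF-beta superfamily that signals through the receptor GFRAL with its co-receptor RET. VLDLR is a cell-surface receptor for lipoproteins and reelin. Others act on growth inside the cell: DDIT4 (REDD1) holds back the kinase complex mTORC1 through the TSC complex, and 4E-BP1, the product of Eif4ebp1, binds the cap-binding factor eIF4E until mTORC1 phosphorylates it. Several of the 6 genes also answer to hypoxia through HIF, and Gdf15 also to p53. RNA levels say nothing of the phosphorylation of these proteins.

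Promoter sequence is shown for Stc2, Vldlr and Ddit4, because their libraries did not overlap between the groups and RefSeq windows were at hand for them. RefSeq tables of the GRCr8 assembly held promoter windows for 4 of the 6 genes, these 3 and Gdf15. Each line gives the 250 bases before a RefSeq start, 5′ to 3′ on the gene's strand, with matches to the HIF core motif (ACGTG or GCGTG, either strand) or to the composite ATF4-C/EBP motif (TGATGNAA, either strand) in capitals.
Stc2 chr10:16755258-16755507 (+): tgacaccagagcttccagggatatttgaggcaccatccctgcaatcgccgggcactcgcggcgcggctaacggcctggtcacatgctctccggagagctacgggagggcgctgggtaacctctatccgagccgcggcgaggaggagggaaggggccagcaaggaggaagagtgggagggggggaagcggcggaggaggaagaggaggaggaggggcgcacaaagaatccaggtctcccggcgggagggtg
Vldlr chr1:234240436-234240685 (+): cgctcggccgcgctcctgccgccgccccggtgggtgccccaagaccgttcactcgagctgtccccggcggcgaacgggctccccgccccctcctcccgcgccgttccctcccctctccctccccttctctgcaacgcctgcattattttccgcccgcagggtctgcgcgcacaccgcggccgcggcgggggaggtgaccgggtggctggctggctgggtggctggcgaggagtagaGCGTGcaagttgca
Ddit4 chr20:28437038-28437287 (-): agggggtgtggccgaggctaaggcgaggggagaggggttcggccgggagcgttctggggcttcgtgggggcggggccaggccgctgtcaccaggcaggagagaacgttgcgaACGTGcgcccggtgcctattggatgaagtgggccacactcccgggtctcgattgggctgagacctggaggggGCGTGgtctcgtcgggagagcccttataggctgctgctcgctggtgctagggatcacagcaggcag
The composite motif had no match in these windows, nor in the windows of Gdf15, and was present in 3.4% of 33469 RefSeq promoter windows of the same length. The HIF core motif matched at 138 and 66 bases before the start of Ddit4 and at 14 bases before that of Vldlr. It had no match in the windows of Stc2 and Gdf15 and was present in 36.7% of all windows. A match describes these letters only.

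Total counts ran from 77923398 in control replicate 3 to 119087414 in adPERK replicate 2. Control replicate 3 stood apart, with 19287 entries above 0 against 15377 to 16685 in the other 5 libraries. Of the olfactory receptor entries, 45.4% were above 0 in control replicate 3, against 6.24% to 14.5% in the other libraries. The source of these counts was not tested. Members other than Gdf15 are therefore also given without control replicate 3. Low counts clustered at steps of about 6 (5.75 to 6.15 counts by library), so a count of 18, or 3 steps, was taken as the limit that a count of 0 allows in a library. Eif2ak3, the gene of PERK, was 25.8 ± 1.60 CPM (counts scaled to the library's TMM-adjusted total) in control and 26.3 ± 0.318 CPM in adPERK libraries (SD, n = 3; edgeR adjusted p = 0.887). The labels are thus not checked by this gene, and a transgene of another sequence was not tested. Markers of muscle and mesenchyme were present in all libraries (summed CPM 3450 to 3558 in control and 3641 to 3834 in adPERK). Vim and Acta2 made up most of the sum, at means of 1653 and 836 CPM in control and 1883 and 888 CPM in adPERK libraries. Des and Actc1 were the lowest, at 5.48 and 5.51 CPM in control. Of these 10 markers 1 changed, Myog, which fell by 0.28 on the log2 scale (0.11% of all tested entries passed downward). Endothelial, leukocyte and epithelial markers summed to 27.99 to 34.65, 8.54 to 12.4 and 48.7 to 52.8 CPM in control and to 29.56 to 34.04, 9.98 to 11.05 and 53.2 to 54.3 CPM in adPERK libraries. Most of this came from Flt1, Cd14 and Krt8, while Lyz2 and Krt19 had no count in any library. Of the 8 such markers tested 0 passed edgeR, and 1 had an unadjusted p under 0.05, beside 11.2% of all tested entries. The part of these markers in the results was not tested. In these bulk samples, fewer cells making a transcript and less of it per cell cannot be told apart.

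Of the 6 genes, 1 passed the test, Stc2, which rose. The share of all tested entries that passed was 0.421%, and 0.311% passed upward. In 4 of the 6 genes, Stc2, Vldlr, Ddit4 and Eif4ebp1, every adPERK library lay above every control library. Groups did not overlap for 18.2% of all tested entries, and for 9.66% with adPERK higher. The median log2 fold change of the 6 was 0.30, beside -0.0045 over all tested entries. This counts the fitted value of Gdf15, for which no fold is given below. Without Gdf15 the middle value was 0.17, that of Eif4ebp1. Stc1 and Gdf15 overlapped between the groups.

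**Figure D1:**
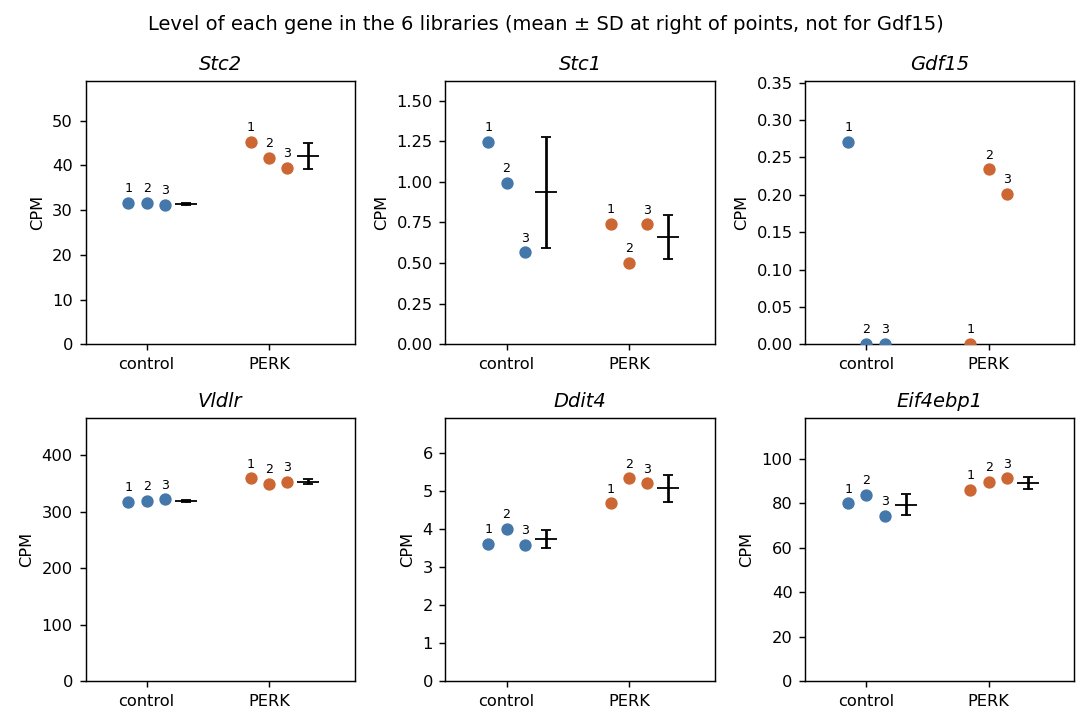
Level in CPM (vertical axis from 0) of each of the 6 genes in the 3 control and 3 adPERK libraries, numbered by replicate, with mean ± SD at the right of the points except for Gdf15. Stc2, Vldlr, Ddit4 and Eif4ebp1 have groups that do not overlap, and Gdf15 is at 0 in 3 libraries.

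**Figure D2:**
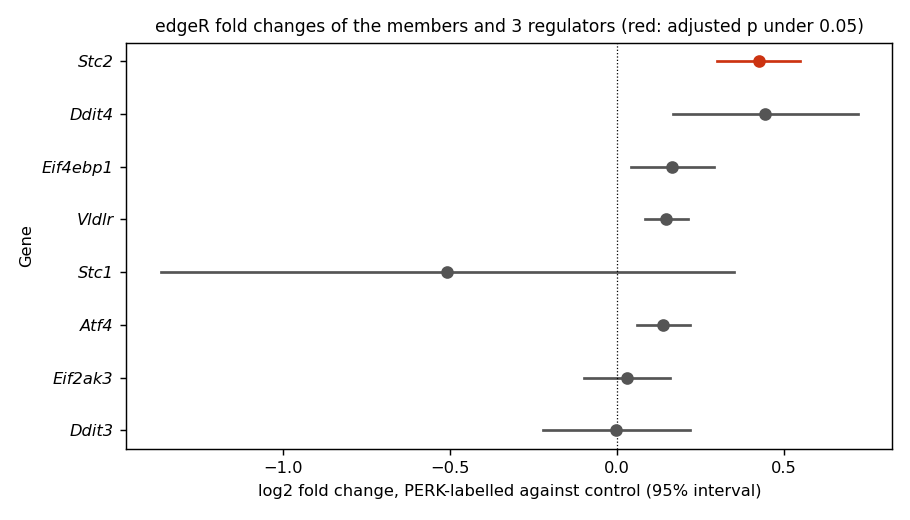
Log2 fold change of adPERK against control with its 95% interval (horizontal axis) for 5 of the 6 genes and for Atf4, Eif2ak3 and Ddit3, from edgeR. Stc2 (0.42) is the only one in red, past the test, and Ddit4 has a change of like size (0.44) with a wider interval.

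Stc2, the secreted inhibitor of PAPP-A, was higher in every adPERK library than in every control library. In control replicates 1 to 3 it stood at 31.5, 31.5 and 31.2 CPM, from 3490, 2606 and 2428 counts. In adPERK replicates 1 to 3 it was 45.3, 41.7 and 39.5 CPM, from 4474, 4984 and 3536 counts. The control libraries were almost level with one another (coefficient of variation 0.655%), while the adPERK libraries spread over 5.79 CPM (6.95%), with replicate 1 the highest. The log2 fold change was 0.42 (SE 0.05), a 1.34-fold rise with a 95% interval of 1.23 to 1.46, and edgeR adjusted p was 0.0217. Stc2 had the 32nd smallest p of all tested entries. Leaving out any 1 library left the log2 fold change between 0.37 and 0.47, but the call ended without control replicates 1, 2 or 3 (edgeR adjusted p = 0.0767, 0.108 and 0.0866) and without adPERK replicates 1 or 2 (0.074 and 0.088). It held without adPERK replicate 3 (0.0477).

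Stc1, the paralog of Stc2, did not pass the test. Control replicates 1 to 3 had 1.25, 0.992 and 0.565 CPM, and adPERK replicates 1 to 3 had 0.739, 0.501 and 0.737 CPM. Control replicate 3 lay below 2 of the adPERK libraries, so the groups overlapped. The counts behind these levels were 138, 82 and 44 in control and 73, 60 and 66 in adPERK libraries, which is 23, 14, 7, 12, 10 and 11 steps of 6. The log2 fold change was -0.51 with a 95% interval of -1.36 to 0.35 (edgeR adjusted p = 0.666). Without control replicate 3 it was -0.77 (edgeR adjusted p = 0.504).

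The ratio of Stc2 to Stc1 within a library, on the log2 CPM scale with a prior count of 2, was 5.11 ± 0.564 in control and 5.97 ± 0.314 in adPERK libraries (SD, n = 3). Control replicate 3, at 5.74, lay above adPERK replicate 3, at 5.70, and the other control libraries lay below all adPERK libraries. The difference of 0.86 did not separate the groups (two-sided exact permutation p = 0.2 and adjusted p = 0.2 over 3 ratios, where 0.1 is the smallest p that 3 against 3 allows). The ratio test thus did not separate the changes of the paralogs in these libraries.

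Gdf15 was at or near the limit of detection. It had 30, 0 and 0 counts in control replicates 1 to 3 and 0, 28 and 18 counts in adPERK replicates 1 to 3. The highest library was a control library, and 3 libraries of 6 had no count at all. A count of 0 allows up to 0.218 and 0.231 CPM in control replicates 2 and 3 and 0.182 CPM in adPERK replicate 1. Where counts were present they came to 5, 5 and 3 steps of 6. With counts divided by 6, Gdf15 no longer passed the low-count filter, and 5 of the 6 genes were tested. The mean count was 10 in control and 15.3 in adPERK libraries, under the limit of 18, and no fold is given (edgeR adjusted p = 0.933). A Gdf15 response was not detectable at this depth. GFRAL, its receptor, is known mainly from the hindbrain: Gfral had 0 counts in all 6 libraries, and Ret had at most 20.

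Vldlr, whose product binds lipoproteins and reelin, varied little within a group (coefficient of variation 0.794% in control and 1.46% in adPERK libraries). Control replicates 1 to 3 had 317, 319 and 322 CPM, and adPERK replicates 1 to 3 had 359, 349 and 353 CPM. The groups were separate, with 27.0 CPM between the highest control and the lowest adPERK library. The log2 fold change was 0.15 (SE 0.03), or 1.11-fold with a 95% interval of 1.06 to 1.16, and edgeR adjusted p was 0.0848, which misses 0.05. This call turned with the method: adjusted p was 2.5e-04 with DESeq2, which passed 4.04% of the entries it adjusted, and 0.0458 with limma voom. The size was 0.15 in both. Without control replicate 3 the log2 fold change was also 0.15 (edgeR adjusted p = 0.216). Leaving out any 1 library, which makes for smaller fits, gave Vldlr an edgeR adjusted p of 0.199 to 0.251. DESeq2 gave no adjusted p for Stc1, Gdf15 and Ddit4.

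**Figure D3:**
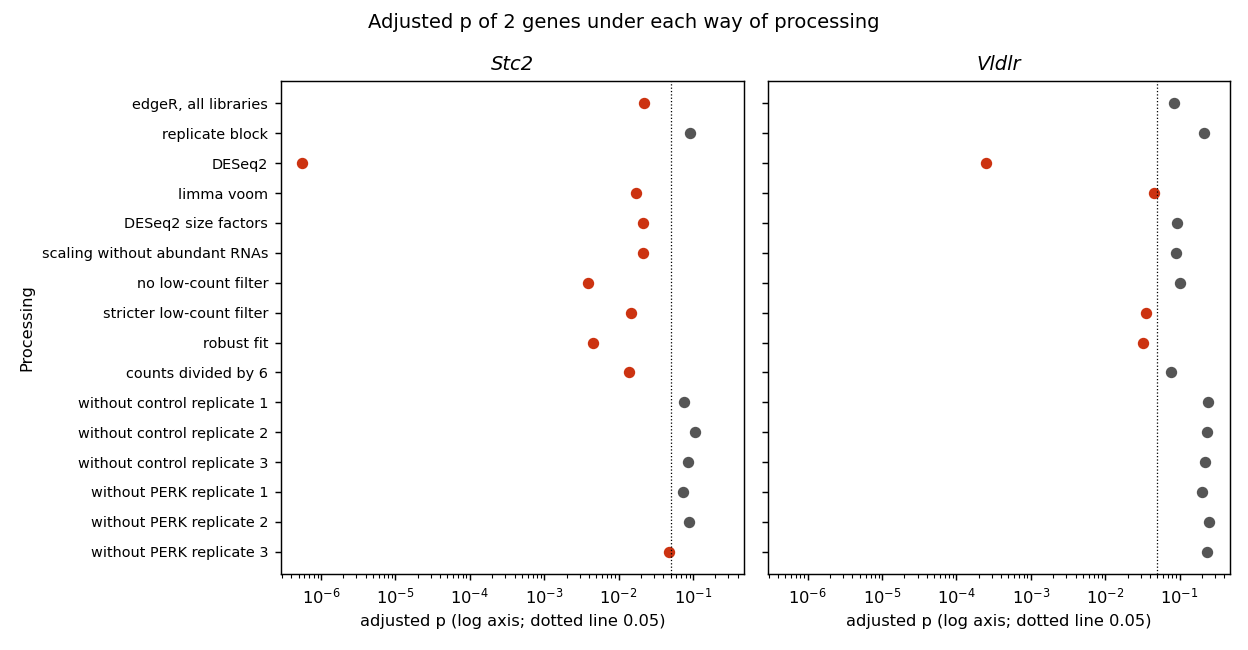
Adjusted p (horizontal log axis, dotted line at 0.05) of Stc2 and Vldlr for the edgeR fit on all libraries and 15 alternatives. Stc2 passes in 9 of the 15 alternatives and Vldlr in 4, DESeq2, limma voom, the stricter filter and the robust fit.

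Lrp8, the gene of another reelin receptor, had a log2 fold change of 0.32 with separate groups (edgeR adjusted p = 0.156).

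Ddit4 was low but higher in every adPERK library. Its control libraries had 3.60, 3.99 and 3.57 CPM, from 399, 330 and 278 counts, and its adPERK libraries 4.67, 5.32 and 5.20 CPM, from 461, 637 and 465 counts. The log2 fold change of 0.44 (SE 0.12) was as large as that of Stc2, but its interval was wider, 0.17 to 0.72, and it did not pass (edgeR unadjusted p = 0.00602, adjusted p = 0.209). Without control replicate 3 the value was 0.41 (edgeR adjusted p = 0.394).

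Eif4ebp1, the gene of the eIF4E-binding brake on translation, had 79.9, 83.6 and 74.4 CPM in controls and 86.1, 89.7 and 91.2 CPM in adPERK libraries. The groups did not overlap, but control replicate 2 came within 2.42 CPM of adPERK replicate 1. The log2 fold change was 0.17 (SE 0.05, 95% interval 0.04 to 0.29, edgeR adjusted p = 0.292). Control replicate 3 was the lowest library, and without it the value was 0.12 (edgeR adjusted p = 0.523). Eif4e, whose product 4E-BP1 binds, was chosen for its role: it was 79.6 ± 0.792 CPM in control and 87.6 ± 2.52 CPM in adPERK libraries (SD, n = 3), a log2 difference of 0.14 (edgeR adjusted p = 0.265). The paralogs Eif4ebp2 and Eif4ebp3 had log2 fold changes of -0.08 and 0.03, with groups that overlapped. The log2 ratio of Ddit4 to Eif4ebp1 was 0.27 higher in adPERK libraries, with all 3 above all control libraries (two-sided exact permutation p = 0.1, the smallest possible, adjusted p = 0.15 over 3 ratios).

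Like Ddit4 and Eif4ebp1, the listed genes of the mTORC1 pathway did not pass the test with edgeR. Of 51 listed, 48 were in the table and 47 were tested. With edgeR 0 passed (2 of 45 with DESeq2 and 0 with limma voom), 21 lay above 0 and 26 below, and the median log2 fold change was -0.0082, beside -0.0045 over all tested entries. The unadjusted p was under 0.05 for 6 of the 47, or 12.8%, and for 11.2% of all tested entries. Akt1, an upstream kinase, was 296 ± 6.06 CPM in control and 290 ± 8.96 CPM in adPERK libraries (SD, n = 3). Eif4b and Rps6, which encode an initiation factor and a ribosomal protein phosphorylated downstream of mTORC1, had log2 fold changes of -0.02 and 0.07. Sec13, a subunit shared by the GATOR complex and vesicle coats, was at 0.16 with separate groups (edgeR adjusted p = 0.205). The kinase gene Mtor itself was at -0.03. Among other brakes on mTORC1, the sestrins Sesn1, Sesn2 and Sesn3 were at -0.18, -0.05 and -0.17 (edgeR adjusted p = 0.670, 0.849 and 0.190). Groups overlapped for Sesn1 and Sesn2 and were separate for Sesn3. Further brakes in the list lay on both sides of 0, such as Akt1s1 at 0.11 with separate groups and Tsc1 at -0.15 with groups that overlapped. Depdc5, Nprl2, Nprl3 and Tbc1d7 were at -0.10, -0.13, -0.15 and -0.04, and Deptor and Tsc2 at 0.03 and 0.0022, all with overlap. Trib3 at 0.24, Fnip2 at -0.27 and Gatsl2 at -0.42 had separate groups (edgeR adjusted p = 0.112, 0.198 and 0.219). Groups did not overlap for 7 of the 47, of which 4 had adPERK higher. Over all tested entries these shares were 18.2% and 9.66%. Ddit4l, the paralog of Ddit4, had 0 counts in every library.

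**Figure D4:**
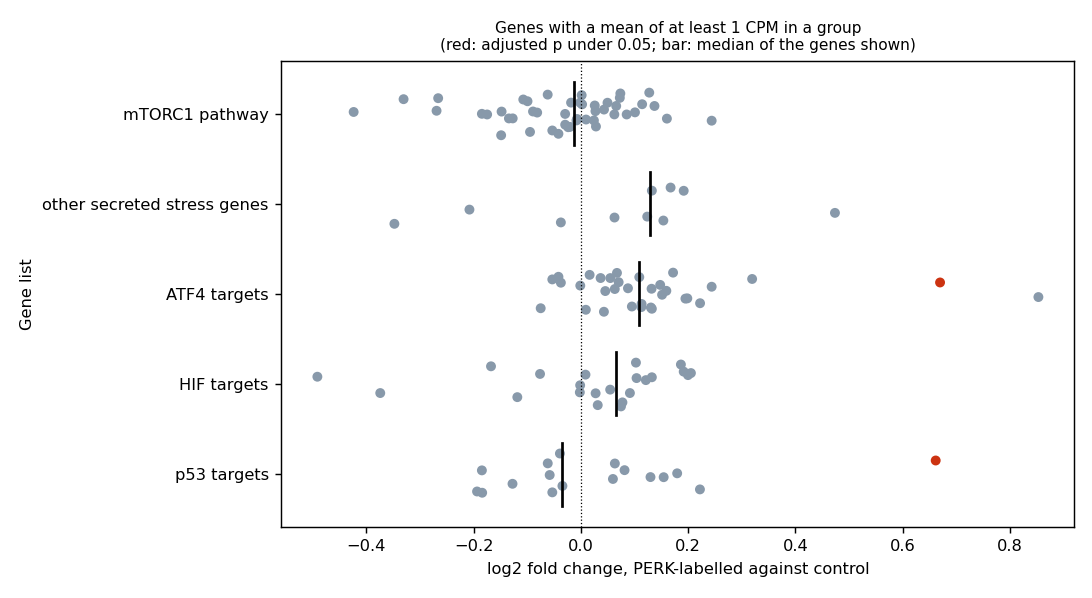
Log2 fold change of adPERK against control (horizontal axis) for the genes of 5 lists with a mean of at least 1 CPM in a group; bars are medians of the genes shown. The red points, past the edgeR test, are Ppp1r15a and Btg2, and the mTORC1 list is centred near 0.

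Pappa, which encodes the PAPP-A protease that STC2 inhibits, was 45.9 ± 3.14 CPM in control and 48.4 ± 3.41 CPM in adPERK libraries (SD, n = 3), and Igfbp4, which encodes a substrate of that protease, 164 ± 6.18 and 176 ± 11.3 CPM. Lrp1, a large scavenger receptor, and Lrpap1, its chaperone, had log2 fold changes of -0.0014 and 0.01. Other secreted stress genes numbered 13 tested of 15, and 0 passed edgeR, DESeq2 or limma voom (median 0.06). Of the 13 tested, 1 (7.69%) had an unadjusted edgeR p under 0.05, beside 11.2% of all tested entries. Manf, a factor released on stress of the endoplasmic reticulum, was at 0.06, Nupr1 at -0.04, Vegfa, an angiogenic factor, at 0.13 and Creld2 at 0.12. Fgf21, a stress hormone like GDF15, had at most 16 counts in any library and was not tested.

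The 34 tested ATF4 targets outside the 6 genes lay mostly above 0, as 29 of them did, with a median log2 fold change of 0.11. Of them 1 rose past edgeR, Ppp1r15a, which encodes the GADD34 phosphatase subunit (log2 fold change 0.67, edgeR adjusted p = 0.00204), and none fell. DESeq2 called 9 of the 32 it adjusted and limma voom 2. The unadjusted edgeR p was under 0.05 for 15 of the 34, beside 11.2% of all tested entries. Groups did not overlap for 15 of the 34, or 44.1%, all with adPERK higher, beside 9.66% of all tested entries. The most abundant, the tRNA synthetase genes Aars, Gars and Nars and the amino acid transporter gene Slc7a5, were at 0.06, 0.17, 0.07 and 0.22. Atf4 itself had 413, 414 and 400 CPM in controls and 458, 461 and 432 CPM in adPERK libraries (log2 fold change 0.14, edgeR adjusted p = 0.19). Its groups were separate, while those of Ddit3, the gene of CHOP, overlapped (log2 fold change -0.0012, 95% interval -0.22 to 0.22).

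HIF targets outside the 6 genes, 23 tested, had 0 past edgeR, 1 past DESeq2, 0 past limma voom and a median of 0.05. An unadjusted edgeR p under 0.05 was found for 4 of the 23, or 17.4%, beside 11.2% of all tested entries. Groups did not overlap for 7 of the 23, of which 5 had adPERK higher, beside 18.2% and 9.66% of all tested entries. The smallest p of this list was that of Mxi1, which was at -0.37 with separate groups (edgeR adjusted p = 0.0815). The glycolytic genes Aldoa, Eno1, Ldha and Pgk1 were at 0.10, 0.09, 0.07 and 0.03. Of 17 tested p53 targets 1 rose, Btg2, an anti-proliferative gene (log2 fold change 0.66, edgeR adjusted p = 0.00322), none fell, and the median was -0.03; DESeq2 called 5 of the 16 it adjusted and limma voom 1. The unadjusted edgeR p was under 0.05 for 7 of the 17, or 41.2%, beside 11.2% of all tested entries. Groups did not overlap for 8 of the 17, of which 6 had adPERK higher. Over all tested entries 18.2% did not overlap, and 9.66% did so with adPERK higher. Cdkn1a, which encodes the cell cycle inhibitor p21, was at -0.18 with separate groups (edgeR adjusted p = 0.134), and Ccng1, Phlda3 and Pmaip1 were at 0.13, 0.06 and 0.22. Ppp1r15a and Btg2 passed edgeR without any 1 library.

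The entries whose levels followed each gene most closely over the 6 libraries were found by Pearson correlation of log2 CPM among about 7776 entries of at least 10 CPM. With 6 libraries such values are easily high: 245 entries exceeded 0.9 with Stc2, 280 with Vldlr, 275 with Ddit4, 176 with Eif4ebp1, 48 with Gdf15 and 44 with Stc1. The closest to Stc2 were Rpl3 (r = 0.993), Col5a2 (0.989) and Tll1 (0.988). Those closest to Vldlr were Vcp (0.994), Cald1 (0.994) and Sulf1 (0.992), and those closest to Ddit4 were Col5a1 (0.995), Plaur (0.994) and Pcolce (0.993). Eif4ebp1 was followed by Slc24a3 (0.990), Ptprn (0.988) and Plin3 (0.987). Stc1 was followed by Ctcf (0.989), Eri1 (0.987) and Kdm5a (0.985), and Gdf15, in which 3 libraries are at 0, by Rab34 (0.976), Bsg (0.971) and Kdelc2 (0.953). These are descriptions over shared libraries and carry no test.

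The authors' deposited table calls 3 of the 6 genes at an adjusted p under 0.05, where 2.27% of its entries with an adjusted p are called. In the authors' deposited table Stc2 has a log2 fold change of 0.43 and adjusted p = 2.1e-05, and Vldlr 0.15 and 0.0293. Of the entries with an adjusted p there, 1.55% are called lower in adPERK. Stc1 is one of them, with a log2 fold change of -0.56, a standard error of 0.17 and adjusted p = 0.0373, while its counts in these 6 libraries overlap between the groups. In the edgeR fit the standard error for Stc1 was 0.37. Ddit4 and Eif4ebp1 have adjusted p of 0.267 and 0.703 in the authors' deposited table.

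The same table gives a base mean per gene. Among the 6 genes it differs most from the mean of the 6 normalized columns for the 2 with the fewest counts. For Stc1 the authors' deposited table has a base mean of 7842, while the 6 normalized columns average 66.3, a ratio of 118. For Gdf15 it has 1502 against 9.79, a ratio of 153. Over all tested entries the median ratio was 1.02, the 95th percentile was 4.48, and 43 of 14488 entries exceeded 100, with Gdf15 ranked 30th and Stc1 39th from the top. The ratios of Stc2, Vldlr, Ddit4 and Eif4ebp1 were 1.06, 0.851, 1.26 and 1.57, and those of Atf4 and Ddit3 were 1.75 and 2.20. The sources used here do not say how the base mean was computed.

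**Figure D5:**
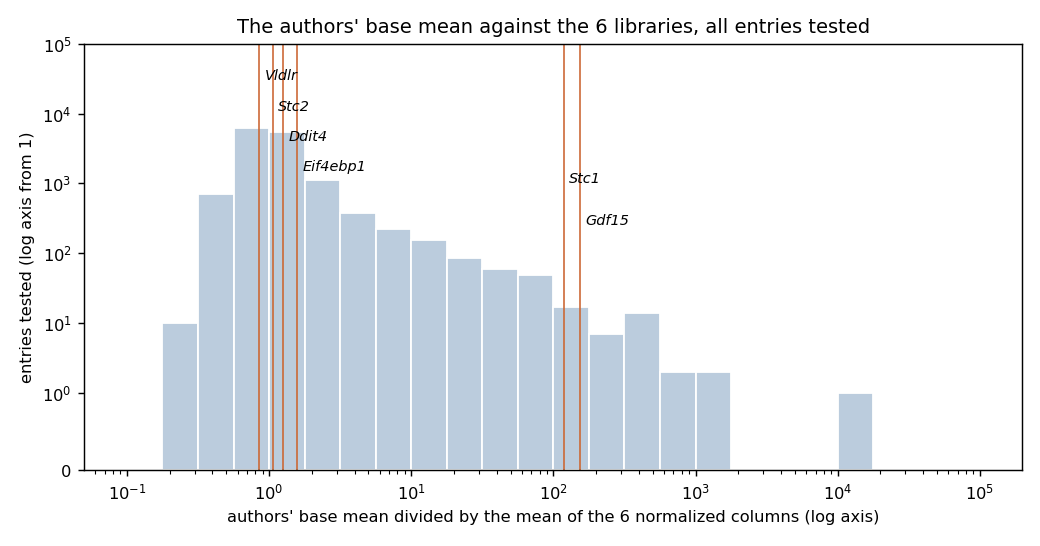
Number of tested entries (vertical axis, log from 1) by the authors' base mean divided by the mean of the 6 normalized columns (horizontal log axis), with the 6 genes as lines. Stc1 (118) and Gdf15 (153) lie far above the median of 1.02, and the other 4 genes lie between 0.851 and 1.57.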

How the data were processed

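The deposited table gives counts per gene as whole numbers for 6 H9c2 libraries, and these counts were used as the authors deposited them. Per the submitters' processing notes Bowtie 0.12.2 and the build mm9 were used, while the entries carry rat names; a counting program was not given in the sources used here. Each deposited normalized signal equals the authors' count divided by 1 size factor per library. The authors' log2 fold changes, test score and p-values are quoted only where the deposited table is named. A table with 6 columns that match no label was not used.

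The main test was edgeR 4.0.16 (R 4.3.3), with TMM scaling, filterByExpr (minimum count 10), a quasi-likelihood fit with group as the only term, glmQLFTest and Benjamini-Hochberg adjustment at 0.05 over 14488 entries. CPM uses TMM-scaled totals. Standard errors and 95% intervals come from the fold change and F. DESeq2 1.42.0 and limma 3.58.1 were alternatives, and the closing section gives their effect. The fit was also run on simulated counts, drawn without the steps seen in the low counts. That run set a pass limit on recovery only for changes larger than those of the 6 genes. Intervals cover counting error and the spread of these libraries only. Beyond the 6 genes, named genes are the changed and most abundant members of the gene lists and the closest patterns. Eif4e, Pappa, Lrp8, Mtor, the sestrins, Akt1s1, Tsc1, the Eif4ebp1 paralogs and genes at or near 0 were added for their role after values were seen. Further genes of the mTORC1 list and Mxi1 were also added after values were seen. The members and lists were chosen with earlier results of these data known. Some results are not reported here. Same-numbered libraries did not deviate together (correlations of -0.37, -0.03 and -0.01 over 8299 entries), and differently numbered ones gave -0.22 to 0.22. Deviations from a mean of 3 libraries sum to 0, so these values cannot settle whether the numbers pair the samples. The main fit did not pair them, and a replicate block was run as an alternative.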

Additional observations from a re-analysis of the deposited data

How the results depend on the processing

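No alternative turned the sign of a log2 fold change among the 6 genes. The 1 gene called became 0 with a replicate block, where Stc2 was at 0.42 (edgeR adjusted p = 0.0914), and Ppp1r15a and Btg2 still passed. The labels do not say whether equal replicate numbers pair the samples. The 1 gene called became 2, Stc2 and Vldlr, with DESeq2, limma voom, a stricter filter (3 of the 6 genes tested) and a robust fit. In these Vldlr was at 0.15, 0.15, 0.14 and 0.15. Over all entries 61 calls became 9 with the replicate block, 392 with DESeq2, 110 with limma voom, 94 without a filter, 106 with the stricter filter, 93 with counts divided by 6 and 132 with the robust fit; calls higher against lower were 7 and 2 with the block, 249 and 143 with DESeq2, against 45 and 16. Paired by number, the ratios differed by 0.86 and 0.27, where 3 pairs cannot go below an exact p of 0.25.

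Leaving out 1 library gave 12 to 38 calls over all entries and 0 to 1 among the 6 genes; such fits have fewer libraries. Log2 fold changes then ran from -0.77 to -0.24 for Stc1, 0.37 to 0.47 for Stc2, 0.14 to 0.16 for Vldlr, 0.41 to 0.50 for Ddit4 and 0.12 to 0.20 for Eif4ebp1. For Gdf15 the fitted values, 0.08 to 6.78, depend on the prior count because of libraries at 0. The log2 ratio differences ran from 0.63 to 1.17 for Stc2 to Stc1 and 0.24 to 0.31 for Ddit4 to Eif4ebp1. The edgeR counts called in the 5 lists shown were the same without a filter and without any 1 library, while DESeq2 called more in all but the list of other secreted stress genes, as given above. Gdf15 and Stc1 had the fewest counts of the 6 genes.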

Other observations

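The largest ratios of the authors' deposited base mean to the mean of the 6 normalized columns belonged to genes of the cardiac sarcomere, chosen here after their values were seen. Myh7, a myosin heavy chain, has a base mean of 231511 in the authors' deposited table, while the 6 columns average 14.8. Tnni3, cardiac troponin I, has 25653 against 16.0, and Mybpc3, cardiac myosin binding protein C, 38601 against 28.4. They ranked 1, 2 and 3 among 14488 tested entries. Stc1 and Gdf15 thus share with them a deposited base mean far above these 6 libraries, and the sources used here do not say what it was averaged over.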
